A study of Mus musculus with 3 samples.

Results

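The clustered protocadherins are cell-surface adhesion proteins of the cadherin superfamily, encoded on mouse chromosome 18 by 3 neighbouring gene clusters named alpha, beta and gamma. Members were the protein-coding genes of that chromosome whose symbol begins with Pcdha, Pcdhb or Pcdhg in the mm9 GENCODE vM1 annotation, which gave 24 of the 22350 protein-coding genes. The annotation held 2 alpha models (Pcdha11 and Pcdha3), 21 beta models (Pcdhb1 to Pcdhb19, Pcdhb21 and Pcdhb22) and 1 gamma model (Pcdhgc5), with 46 transcript starts among them. Pcdhb20 was annotated as a pseudogene and was not a member.

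In the alpha and gamma clusters, each of an array of large variable exons carries its own promoter and is spliced to a shared set of small constant exons, whereas each beta gene is a single large exon. A variable exon encodes the whole extracellular part of the protein, made of cadherin repeats, together with the membrane-spanning segment and the start of the cytoplasmic tail. In neurons, promoter choice differs from cell to cell and gives each neuron its own set of isoforms, which bind in a homophilic way and serve in self-avoidance of neurites. Choice depends on CTCF and cohesin, which link promoters to distal enhancers, and on DNA methylation. H2A.Z is a histone variant found mostly around transcription starts, and H3K27me3 is the mark that Polycomb repressive complex 2 places at silent developmental genes.

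ChIP-Seq enriched regions were examined in mouse embryonic stem cells (ESCs), with 1 library in each of 3 groups. The H2A.Z WT library came from cells with a wild-type H2A.Z transgene, and the H2A.Z AP3 library from cells with a transgene in which 3 residues of the acidic patch, a charged surface on the nucleosome, were replaced by those of H2A. Both transgenes carried a C-terminal YFP tag, were driven by a doxycycline-inducible CMV promoter (1 µg/ml doxycycline) and were delivered by lentivirus to KH2 ESCs sorted for YFP, and short hairpins under blasticidin selection depleted the endogenous H2A.Z of both. Both were precipitated with an anti-GFP antibody (Abcam Ab290), so that the tagged protein, not endogenous H2A.Z, was read. The H3K27me3 library is labelled wild type in genotype and was precipitated with an antibody against the mark from Millipore. All 3 samples are labelled as strain V6.5 (129SvJaexC57BL/6), also the transgenic ones, and had been grown on feeder cells until the final passage. No label says whether a line was clonal, and no age applies to these cultured cells.

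With 1 library a group there was no replicate check and no test between groups. The lists give where a region starts and ends on a grid of 25 bp, with no height, and the number of reads behind each list is unknown. The 3 lists called at a P threshold of 1e-9 differed in size, with 78359 H2A.Z WT regions but only 14599 in the H2A.Z AP3 list and 16970 in that of H3K27me3, so that a difference in depth or precipitation between libraries cannot be told apart from a difference in occupancy. Intervals below are 95% Wilson intervals and cover counting error only. A gene was counted as called where a region shared at least 1 bp with the window of 2 kb each side of any of its starts.

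An H2A.Z WT region lay in the window of all 24 clustered protocadherins (100.0%, interval 86.2 to 100.0), against 61.7% of all protein-coding genes and 66.9% of the 493 other protein-coding genes of chromosome 18. An H3K27me3 region lay in the window of 18 members (75%, 55.1 to 88), against 18.2% of all genes and 23.5% of the others on the chromosome. An H2A.Z AP3 region lay in the window of 3 members (12.5%, 4.34 to 31), against 23.2% of all genes and 21.5% of the others on the chromosome. With this window of 2 kb the clusters were thus above the background in the H2A.Z WT and H3K27me3 lists, while in the H2A.Z AP3 list the interval held the background. The H2A.Z AP3 count was 5 members in the list called at 1e-12 (20.8%, against 18.8% of all genes) and 5 with a window of 5 kb (20.8%, against 27.3%), but 1 at the most upstream start of each gene (4.17%, against 20.8%).

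The count for H2A.Z WT rested on the width of the window. Within 1 kb of a start it was 7 of 24 members (29.2%), below the 59.2% of all genes, so that the members stood above the background at 2 kb and below it at 1 kb. H3K27me3 within 1 kb was at 16 members (66.7%), still above the 16.2% of all genes. Counting each transcript start once, 42 of the 46 starts had an H2A.Z WT region within 2 kb (91.3%, against 54.2% of all starts), 34 had H3K27me3 (73.9%, against 13.2%) and 6 had H2A.Z AP3 (13%, against 18.3%).

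Pcdha11, the model under which the annotation places 10 of the 11 alpha starts, lies at chr18:37089939-37347311. Its windows held 7524 bp of H2A.Z WT regions, 8999 bp of H3K27me3 and 775 bp of H2A.Z AP3. Pcdha3, a model of a single alpha exon at chr18:37105801-37108685, held 1026 bp of H2A.Z WT, 1001 bp of H3K27me3 and no H2A.Z AP3 region. Of the alpha starts, 10 had H2A.Z WT and 10 had H3K27me3, and the most upstream start was listed in none of the 3.

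Among the 21 beta genes, the H2A.Z WT bases in the window ranged from 322 to 925 with a median of 525. The largest values were those of Pcdhb1 (925 bp), Pcdhb6 (825 bp) and Pcdhb13 (796 bp), and the smallest that of Pcdhb11 (322 bp). These values are cut at the edge of the window. H3K27me3 ranged more widely, from 0 to 1900 bp with a median of 200. It was largest at Pcdhb17 (1900 bp), Pcdhb19 (1675 bp) and Pcdhb21 (1456 bp), and no region was listed at Pcdhb6, Pcdhb8, Pcdhb9, Pcdhb11, Pcdhb12 and Pcdhb15. Pcdhb9 was the only beta gene in the H2A.Z AP3 list at 1e-9, and only 34 bp of that region fell in its window. That single call is at the edge of the window, since the rest of the region lay further inside the gene.

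Pcdhgc5, named after the last of the gamma C-type isoforms, is the only gamma model (chr18:37833989-38001527) and takes in 10 starts of gamma variable exons. Its windows held 2936 bp of H2A.Z WT, 8775 bp of H3K27me3 and 425 bp of H2A.Z AP3. It thus held far more bases of H3K27me3 than of H2A.Z WT, whereas in Pcdha11 the values were close. The other C-type isoforms (Pcdhac1, Pcdhac2, Pcdhgc3 and Pcdhgc4) have no model of their own in this annotation and are not given by name.

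Across the clusters from first to last annotated base, 681334 bp in all, H2A.Z WT regions covered 6.24%, H3K27me3 regions 7.98% and H2A.Z AP3 regions 0.367%. The same shares over the 20 chromosomes of the lists were 1.07%, 0.353% and 0.133%. The alpha cluster (257373 bp) was covered to 5.15% by H2A.Z WT, 5.45% by H3K27me3 and 0.34% by H2A.Z AP3. The beta cluster (256422 bp) was covered to 7.67%, 4.68% and 0.224%, in the same order. The gamma cluster (167539 bp) was covered to 5.72%, 16.9% and 0.627%. Coverage was thus highest in beta for H2A.Z WT and in gamma for H3K27me3. As another set of clustered genes, the 4 Hox clusters were covered by H3K27me3 to between 53.7% and 76.6% and by H2A.Z WT to between 7.36% and 26.9%. The median H3K27me3 region at the protocadherins was 275 bp, close to the 250 bp of the whole list, and the longest was 2575 bp. At the Hox clusters H3K27me3 was listed as 52 to 69 separate regions each, with the longest of a cluster between 5775 and 10375 bp.

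**Figure D1:**
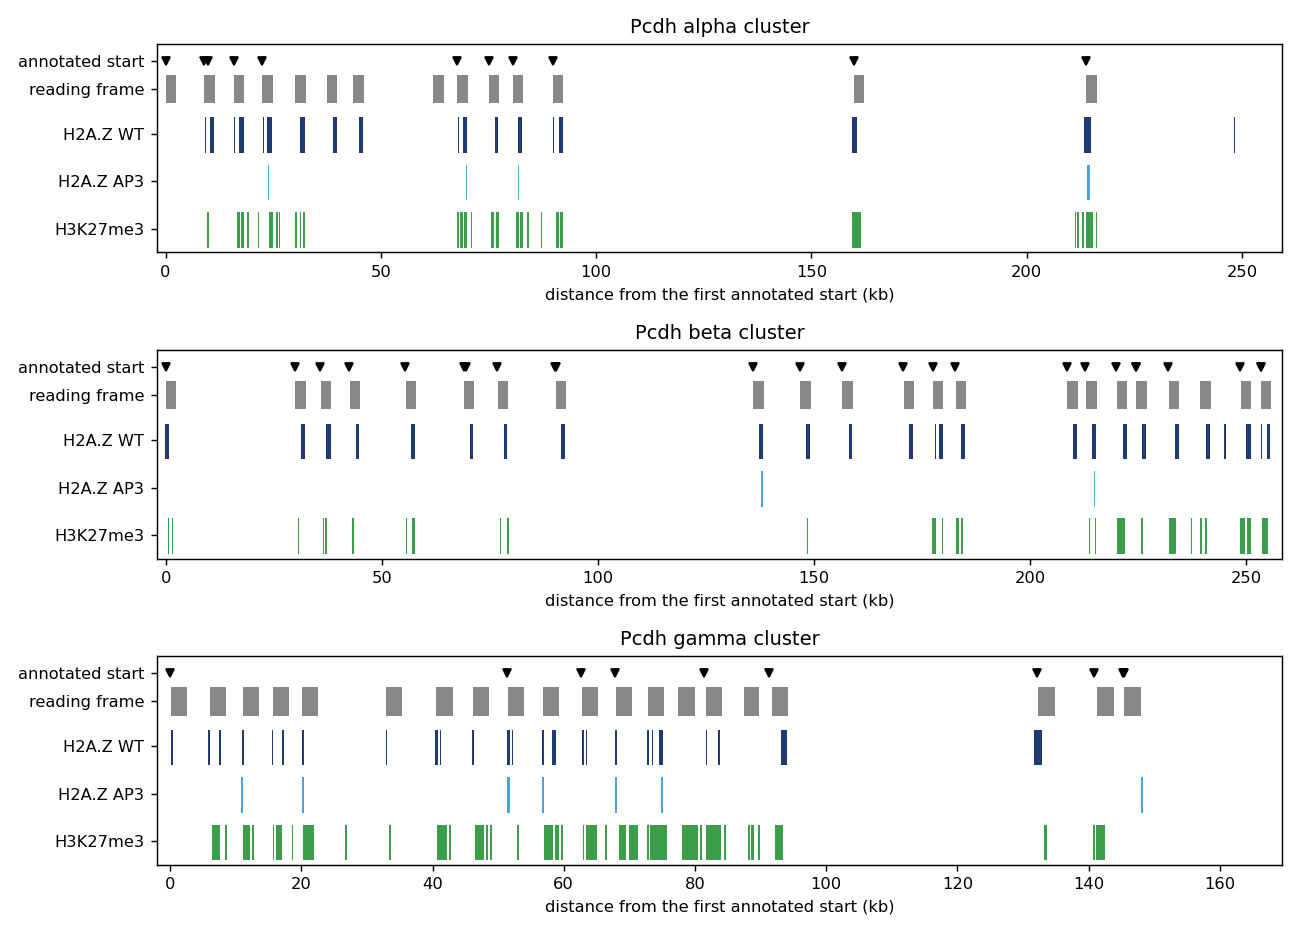
Enriched regions at the 3 protocadherin clusters, plotted by distance in kb from the first annotated start of each cluster, with a row for each library, a row of grey boxes for the large reading frames of variable exons and triangles for annotated starts. Of the H2A.Z WT regions 66 of 68 touch a reading frame, and of the H3K27me3 regions 77 of 97, with the other 20 mostly in alpha and gamma. Regions under 250 bp are drawn at that width.

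Because the annotation folds most alpha and gamma exons into Pcdha11 and Pcdhgc5, the single exons were also followed through their reading frames. Uninterrupted forward frames of at least 2000 bp whose protein matched an annotated first exon of a member were read from mm9, a step chosen after the annotation was seen. There were 58, of 2232 to 2652 bp, of which 14 were alpha, 22 beta and 22 gamma, and 40 coincided with an annotated first exon. They are numbered here from the upstream end of each cluster, and the numbers are not gene names. Frames gamma-1 and gamma-2 lie upstream of the annotated gamma span.

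H2A.Z WT regions lay in 52 of the 58 frames, in 12 of 14 alpha, 22 of 22 beta and 18 of 22 gamma frames. H3K27me3 lay in 44, as 10 alpha, 16 beta and 18 gamma frames. H2A.Z AP3 lay in 10, as 4 alpha, 2 beta and 4 gamma frames. For H2A.Z WT the nearest background is the first 2400 bp of genes outside the clusters with a first exon of at least 2000 bp. Of those 490 genes, 58.8% had a region there. No such share was taken for H3K27me3 or H2A.Z AP3, so their frame counts have no background here. Frames took up 13.3% of the alpha, 20.6% of the beta and 29.5% of the gamma span, but held 91.4%, 98.1% and 76.5% of the H2A.Z WT bases there. With the 500 bp before each frame added, the gamma share was 99.7%. The H3K27me3 bases within frames were 84.6%, 95.8% and 88.9% of those in each span. By region, 66 of the 68 H2A.Z WT regions touched a frame, whereas 20 of the 97 H3K27me3 regions did not, 10 of them in alpha, 1 in beta and 9 in gamma.

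**Figure D2:**
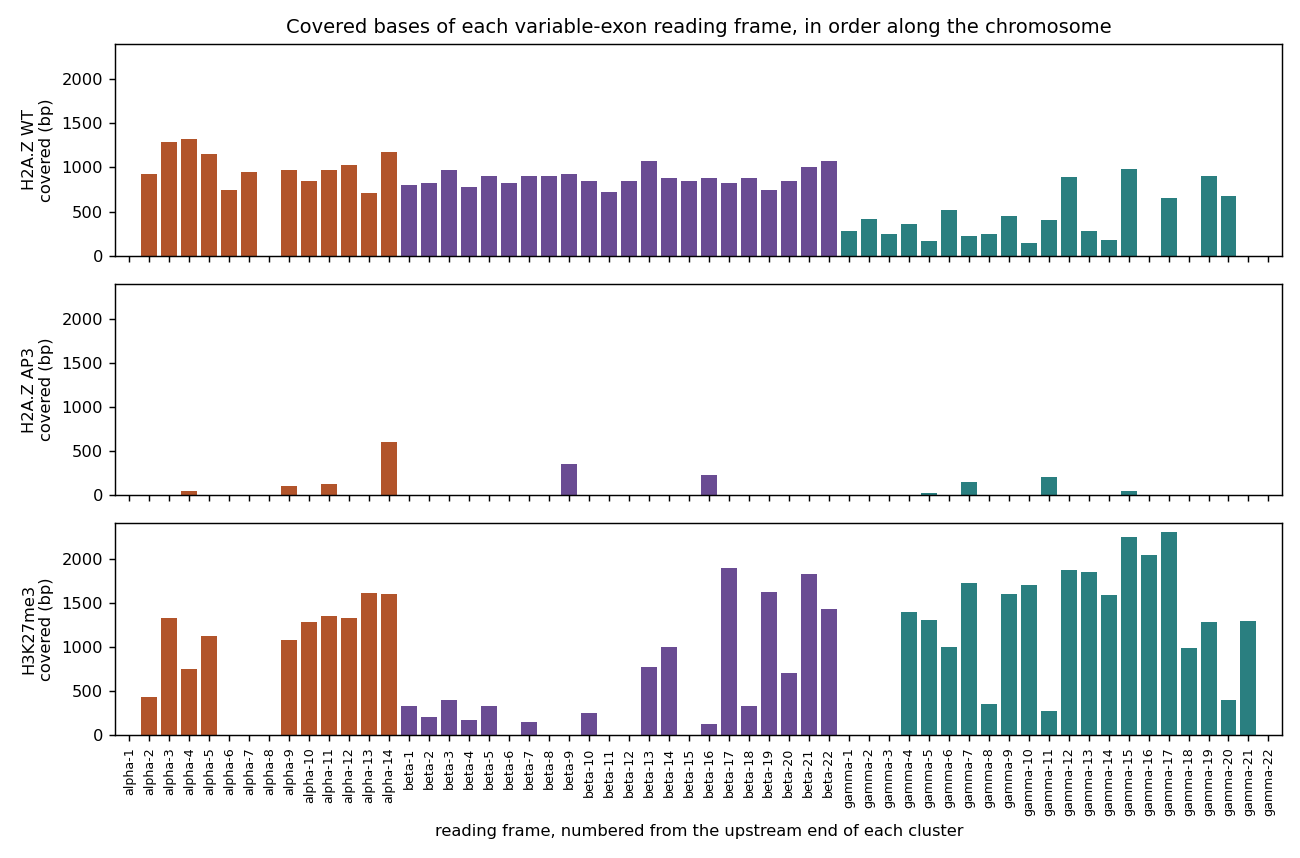
Bases covered by enriched regions (bp, vertical axes from 0) in each of the 58 reading frames, in order along the chromosome, with a panel for each library and colours for alpha, beta and gamma. The beta bars for H2A.Z WT are alike at 725 to 1075 bp, those for H3K27me3 range from 0 to 1888 bp and are taller at the downstream end, and few frames have H2A.Z AP3.

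The place of H2A.Z WT within the exon differed between clusters. In alpha and beta it lay at the far end of the large exon, and in gamma at its start. The midpoint of the longest H2A.Z WT region of a frame was a median of 1734 bp from the ATG in alpha, 1768 bp in beta and 81.5 bp in gamma. Splitting each frame at its middle, the downstream part held more H2A.Z WT bases in 10 of 14 alpha frames, 21 of 22 beta frames and 6 of 22 gamma frames, and the upstream part held more in 2, 1 and 12 frames. At 1800 bp from the ATG a region covered 71.4% of alpha, 95.5% of beta and 13.6% of gamma frames, and at the ATG itself 21.4%, 4.55% and 77.3%. Across all protein-coding genes, aligned at the most upstream start, coverage was highest at 35.7%, 175 bp past the start, and was 3.28% at 1800 bp.

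A similar split was made in genes outside the clusters with a long first exon. Of the 490 genes outside the clusters whose first exon was at least 2000 bp, 288 (58.8%) had an H2A.Z WT region in the first 2400 bp. The downstream part was the more covered in 45 of these genes, 9.18% of the 490 and 15.6% of the 288, and the upstream part in 238 (82.6% of the 288). These genes are aligned at the transcript start rather than the ATG, and the part of exon length in the position of H2A.Z WT was not tested.

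**Figure D3:**
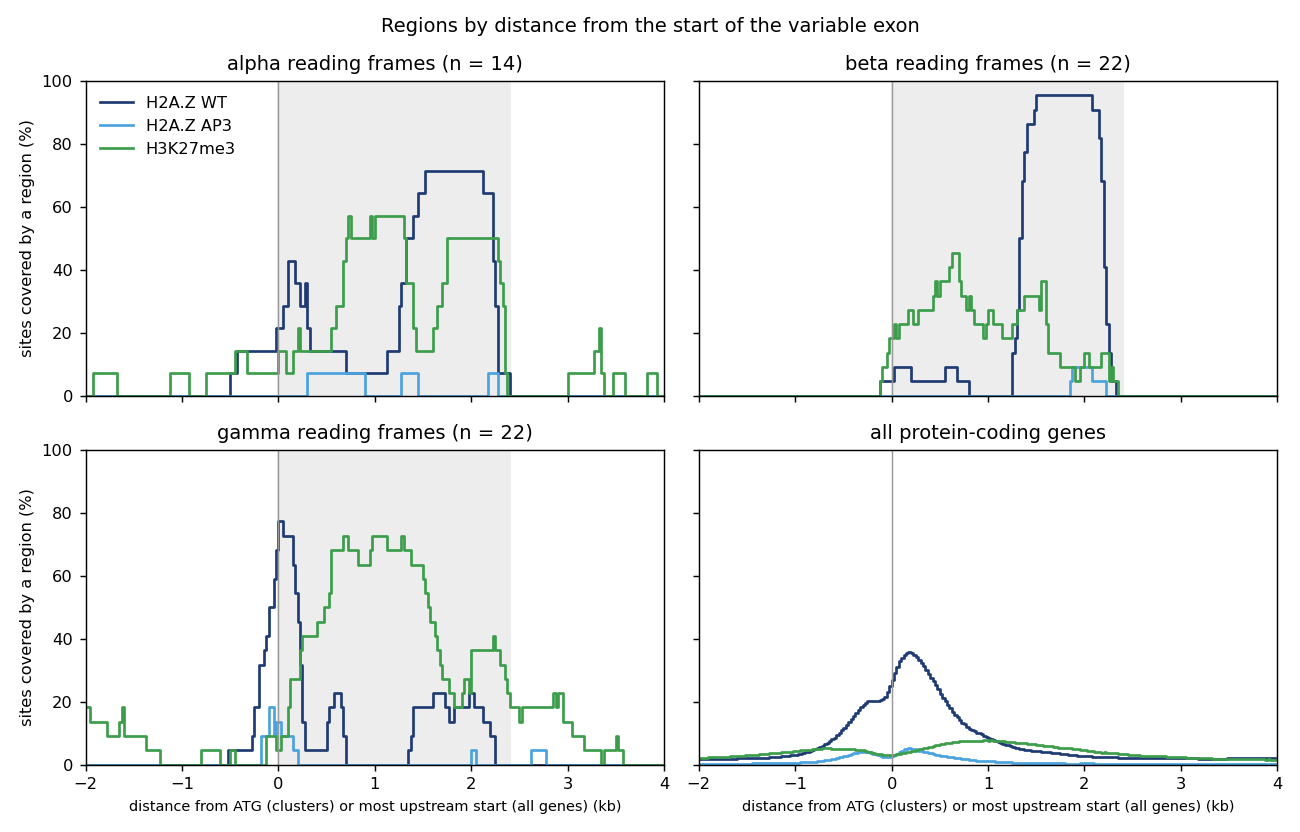
Percent of reading frames covered by a region (vertical axis) by distance from the ATG in kb (horizontal axis, grey band 0 to 2.4 kb) for the alpha, beta and gamma frames, and by distance from the most upstream start for all protein-coding genes, with a line for each library. H2A.Z WT reaches 95.5% of beta frames near the end of the frame and 77.3% of gamma frames at the ATG, while H3K27me3 is highest at 725 bp in alpha, 625 bp in beta and 675 bp in gamma.

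The beta frames were the most alike. In all but the first, the longest H2A.Z WT region was 725 to 1000 bp long and its midpoint lay between 1695 and 1868 bp from the ATG. The first, which is Pcdhb1, is the most upstream beta gene, and its 925-bp region was centred 336 bp from the ATG, with no H2A.Z WT base in the downstream part. In alpha, the last 2 frames, which lie far downstream of the other 12, also carried the region at the start. The midpoint was 148 bp from the ATG in alpha-13 and 340 bp in alpha-14, with regions of 1125 and 1675 bp, whereas in the other 10 alpha frames with a region it lay between 1706 and 1917 bp. Frames alpha-1 and alpha-8 had no region in any of the 3 lists.

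The alpha and gamma frames could also hold both kinds of region. H2A.Z WT lay both within 500 bp of the ATG and in the downstream part in 5 alpha frames, 1 beta frame and 6 gamma frames. In gamma, 17 of 22 frames had H2A.Z WT within 500 bp of the ATG, in 17 regions of 225 to 1200 bp with a median of 325 bp. The longest H2A.Z WT region of a frame, wherever it lay, had a median length of 362.5 bp in gamma, 962.5 bp in alpha and 875 bp in beta. Frame gamma-19 was arranged as in alpha and beta, with a 900-bp region centred 1805 bp from the ATG. Frame gamma-20 had the longest gamma region, 1200 bp centred 74 bp from the ATG. Frames gamma-16, gamma-18 and gamma-21 had H3K27me3 alone, and gamma-22 had no region in any list.

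Protocadherin variable exons resemble each other, so the sequence under the regions was measured as well. Stretches of 36 bases that matched a second place on chromosome 18 with up to 2 mismatches, called recurring here, made up 62.6% of the H2A.Z WT regions of the beta cluster, 36% of those of alpha and 30.8% of those of gamma. Outside H2A.Z WT regions the frames held 26.8%, 31% and 14.9% of recurring stretches. In beta, recurring stretches made up 25.3% of the first 1200 bp of the frames and 55.6% of the next 1200 bp, and all 21 regions in the downstream part of beta frames held at least 50%. In alpha the shares of the first and next 1200 bp were 32.6% and 36.8%, and in gamma, where H2A.Z WT lay at the start, 13.2% and 24.2%. These averages hide local peaks. In steps of 100 bp, gamma recurrence was 18.6%, 38.4% and 47.5% from 0, 100 and 200 bp past the ATG and 11.1% from 300 bp. It was highest at 53.4%, from 1700 bp. In alpha, recurrence was 85% from 200 bp and 80.7% from 1400 bp, but 3.57% from 1800 bp. H2A.Z WT covered 35.7%, 57.1% and 71.4% of alpha frames at those points. How the alignment treated reads with several matches, and the read length, are not given in the sources used here, and the part of recurrence in the position of H2A.Z WT was not tested.

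Coverage was then split by recurrence. In the second 1200 bp of beta frames, H2A.Z WT regions covered 84.5% of recurring stretches and 49.5% of those that did not recur, and in the first 1200 bp 0% and 5.58%. In alpha the values were 64.8% and 50.3% in the second 1200 bp and 14% and 17.7% in the first. Stretches that did not recur lie next to recurring ones, and reads were extended to 200 bp, so the values of neighbouring stretches are not independent. In gamma, H2A.Z WT covered 41.9% of recurring and 13.8% of other stretches in the first 1200 bp, and 23.9% and 9.49% in the second. H3K27me3 in the first 1200 bp covered 2.38% of recurring and 46.6% of other stretches in alpha, 2.84% and 36.4% in beta and 28.2% and 56.2% in gamma. In the second 1200 bp it covered 23.1% and 47.3% in alpha, 16.8% and 14.6% in beta and 33.6% and 44.1% in gamma. The regions at the start of alpha-13, alpha-14, Pcdhb1 and gamma-20 held no recurring stretch, and the downstream region of gamma-19 held 11.7%.

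CpG content was higher within the H2A.Z WT regions than in the rest of the frames. It was 6.16 CpG per 100 bp within those of alpha, 4.37 in beta and 6.2 in gamma, against 3.68, 1.78 and 3.4 in the rest of the frames and 0.825 over chromosome 18. In the beta frames it averaged 2.01 in the first 1200 bp and 3.5 in the next, and in the gamma frames 4.06 and 3.72. The CpG-richer side of the beta frames was thus the side that carried H2A.Z WT, and in alpha likewise, with 4.02 and 5.16. By position the 2 did not always go together. In steps of 100 bp, gamma CpG content was 5.64 from the ATG and 5.77 from 1600 bp, where H2A.Z WT covered 77.3% and 22.7% of frames. In alpha it was 7.64 from 200 bp and 8.43 from 1400 bp, where H2A.Z WT covered 35.7% and 57.1%. In beta the highest step, 6.95 from 1600 bp, lay where H2A.Z WT covered 95.5%. The part of CpG content in the result was not tested.

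**Figure D4:**
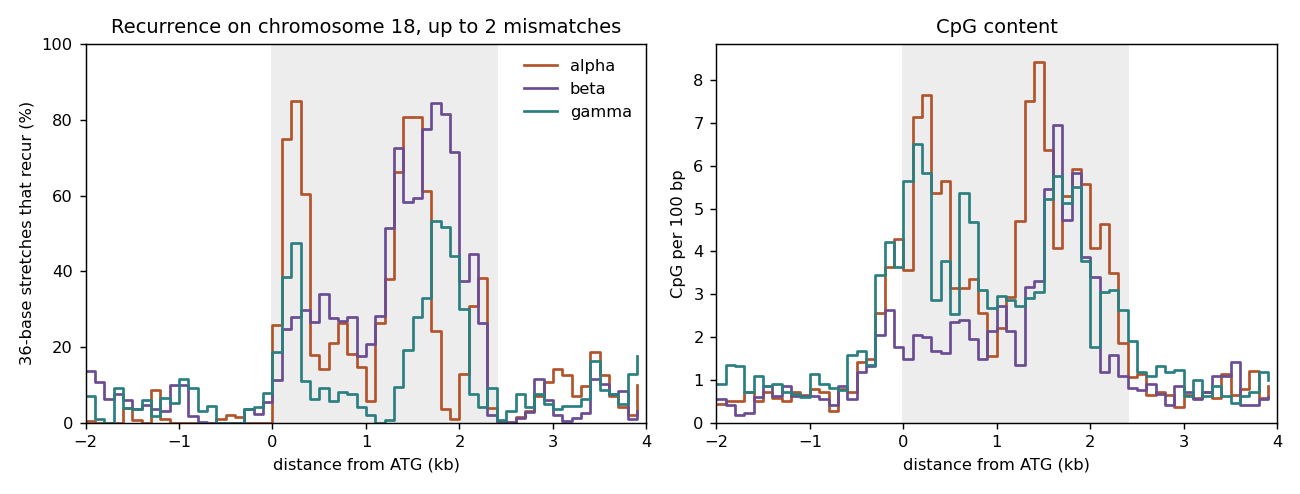
Percent of 36-base stretches that recur on chromosome 18 with up to 2 mismatches (left) and CpG per 100 bp (right), in steps of 100 bp by distance from the ATG in kb, with a line for each cluster and a grey band from 0 to 2.4 kb. In beta both are highest between 1.3 and 2 kb, where the H2A.Z WT regions lie.

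H3K27me3 in the frames was unequal along the beta cluster. In the 12 frames from beta-1 to beta-12 it covered 0 to 400 bp (median 162.5), with a region in 7, and in the 10 frames from beta-13 to beta-22 it covered 0 to 1888 bp (median 885.5), with a region in 9. This division was chosen after the values were seen. The frames also differed in sequence likeness. The best protein identity to another annotated frame was 50.8 to 73.2% in beta-1 to beta-3. It was 84.5 to 89.3% in beta-4 to beta-12 and 70.2 to 75.9% in beta-13 to beta-22. The part of sequence likeness in the H3K27me3 values was not tested. In gamma, H3K27me3 covered a median of 1294 bp of a frame and up to 2300 bp (gamma-17), and the 3 most upstream gamma frames had none. In alpha the median was 1100 bp, and alpha-6 and alpha-7 had H2A.Z WT regions of 750 and 950 bp with no H3K27me3.

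The H2A.Z WT and H3K27me3 lists shared exons and overlapped only in part. They come from different cells, a transgenic line and a sample labelled wild type, so the overlap is between lists. Of the 68 H2A.Z WT regions in the spans, 39 shared at least 1 bp with an H3K27me3 region (57.4%, 45.5 to 68.4), against 8.08% of the whole H2A.Z WT list. These shares were not adjusted for length, and the median H2A.Z WT region was 750 bp in the spans and 250 bp in the whole list. By cluster the share was 9 of 18 in alpha, 14 of 25 in beta and 16 of 25 in gamma. In bases, 52.5% of H2A.Z WT lay inside H3K27me3 in alpha, 18.8% in beta and 31.3% in gamma, against 9.66% over the genome. Requiring that at least 50% of the H2A.Z WT region be overlapped lowered the share of regions to 27.9%. Of the 97 H3K27me3 regions in the spans, 40 overlapped H2A.Z WT (41.2%, 32 to 51.2), close to the 38.2% of the whole H3K27me3 list. Frames with both lists numbered 10 in alpha, 16 in beta and 15 in gamma.

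H2A.Z AP3 was listed in few places in the clusters. There were 13 regions, of which 4 lay in alpha, 2 in beta and 7 in gamma, and 11 of the 13 overlapped an H2A.Z WT region (84.6%, 57.8 to 95.7), against 73% of the whole H2A.Z AP3 list. In the reverse direction, 11 of the 68 H2A.Z WT regions overlapped H2A.Z AP3 (16.2%, 9.28 to 26.7), against 12.9% of the whole list. H2A.Z AP3 bases came to 5.88% of H2A.Z WT bases in the spans, against 12.4% over the genome, with 6.6% in alpha, 2.92% in beta and 11% in gamma. By count of regions, the share with H2A.Z AP3 was near that of the list. That share was not adjusted for length, and H2A.Z WT regions were longer in the spans (median 750 bp, against 250 bp in the list). The share of bases was lower than over the genome.

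The longest H2A.Z AP3 coverage of a frame was in alpha-14, with 600 bp beside 1178 bp of H2A.Z WT and 1600 bp of H3K27me3. In beta, frame beta-9 (Pcdhb9) held 350 bp and beta-16 (Pcdhb16) 225 bp, both in the downstream part of the exon where H2A.Z WT also lay. In gamma the values were 204 bp in gamma-11, 146 bp in gamma-7, 50 bp in gamma-15 and 22 bp in gamma-5. The gamma regions were thus short and mostly at the start of the frame, with the highest coverage, 18.2% of gamma frames, 100 bp before the ATG. Only 7 of the 13 H2A.Z AP3 regions (53.8%) held a region of the 1e-12 list, against 89.7% of the H2A.Z WT regions and 75.3% of the H3K27me3 regions.

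Of the 12 non-clustered protocadherins, which are single genes with their own promoters, 10 had H2A.Z WT in the window, 2 had H2A.Z AP3 and 11 had H3K27me3. As in the clusters, H2A.Z WT and H3K27me3 were both listed at 75% of the non-clustered genes (9 of 12, and 18 of the 24 members). Both were listed at 17.3% of all protein-coding genes and 23.1% of the other protein-coding genes of chromosome 18. Pcdh7 held 2300 bp of H2A.Z WT and 4044 bp of H3K27me3, and Pcdh12, also on chromosome 18, held 225 bp of H2A.Z WT and no H3K27me3. Their H3K27me3 (median 1472 bp over the 12) was larger than that of the 24 clustered members (median 287.5 bp), at windows that differ in number of starts. The 13 regulators of the clusters included Ctcf, the cohesin subunits Rad21, Smc1a and Smc3, the DNA methyltransferase gene Dnmt3b and Smchd1, which silences clustered genes. Of the 13, 10 had H2A.Z WT (76.9%, 49.7 to 91.8) and 0 had H2A.Z AP3 (interval 0 to 22.8%). H3K27me3 was listed at 1 (Dnmt3b, 50 bp), or 7.69% (1.37 to 33.3). The intervals for H2A.Z WT and H3K27me3 held the shares of all genes. That for H2A.Z AP3 ended just below the 23.2% of all genes. Ctcf held 575 bp of H2A.Z WT, and Rad21 was in none of the lists. All 4 signalling partners, kinases that act with protocadherins at the membrane, had H2A.Z WT (100.0%, 51 to 100.0), against 61.7% of all genes. Of the 4, 3 had H2A.Z AP3 (75%, 30.1 to 95.4), against 23.2% of all genes. H3K27me3 was listed at 1 (25%, 4.56 to 69.9), the receptor tyrosine kinase gene Ret (2229 bp), against 18.2% of all genes.

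Of the 40 Hox genes, 39 had H2A.Z WT (97.5%), 23 had H2A.Z AP3 (57.5%) and 40 had H3K27me3 (100.0%), with a median of 3570 bp of H3K27me3 in the window. The shares of all protein-coding genes were 61.7%, 23.2% and 18.2%, in the same order. Of the 233 olfactory receptor genes of chromosome 7, which like the protocadherins are expressed by choice among many copies, 13 had H2A.Z WT (5.58%), 1 had H2A.Z AP3 and 0 had H3K27me3, the last with an interval of 0 to 1.62%. With 1 library a group, these counts describe the lists and were not tested against each other.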

How the data were processed

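Single-end reads from an Illumina GAII were aligned by the authors to mm9 with Bowtie 0.12.3 allowing up to 2 mismatches, extended them to 200 bp, counted them in 25-bp bins and kept bins at a Poisson P of 1e-9 with at least 5-fold over input. The deposited values are region starts and ends, called per library with no pooling and with no signal or p-value. A second list per library, named for 1e-12, served as an alternative. Depth is unknown, and the lists show presence, not amount.

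Regions were intersected with GENCODE vM1 genes in Python 3.11.15 with NumPy 2.4.6. Reading frames were matched to annotated exons with BLAST 2.17.0 (at least 40% identity over 500 residues, which kept 58 of 61), and recurring stretches, taken every 5 bp, were found with BWA 0.7.19. Counting was tested on simulated data. Figures used Matplotlib 3.10.9.

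Members, gene lists and tests were chosen with earlier results of these data known. Genes to be named were the C-type genes, the 3 members of each cluster with the most H2A.Z WT and H3K27me3 bases, and members with H2A.Z AP3. Of the C-type genes only Pcdhgc5 had a model, which spans the gamma cluster, so none has values of its own exon by name. Other genes, frames and regions were named after their values were seen. Alternatives were the stricter list, the union of lists, other windows, starts, overlaps and joined regions. Sequences are not reported here.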

Additional observations from a re-analysis of the deposited data

Results flagged for a closer look

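In the stricter H2A.Z AP3 list, called at 1e-12, 4 of the 11 regions in the spans (36.4%) shared no base with the list called at 1e-9. A library was flagged at more than 3 such regions, a fixed setting that was not derived from these data. The input library was not analysed here. The 4 regions lay in the windows of Pcdhb6 (125 bp) and Pcdhb15 (200 bp), members with no H2A.Z AP3 region at 1e-9, and at frame gamma-19 (100 and 150 bp). The same held for 3 of 68 H2A.Z WT regions (4.41%) and 3 of 93 H3K27me3 regions (3.23%).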

How the results depend on the processing

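Of 50 alternatives, 37 left a count within 1.5 times its value or a percentage within its interval and 13 did not. The number of members with H2A.Z WT was 7 with a window of 1 kb, which put the members below all genes (29.2% against 59.2%). The number with H2A.Z AP3 was 5 in the 1e-12 list (20.8%, where all genes were at 18.8%), 5 in the union of the lists, 5 with a window of 5 kb and 1 at the most upstream start. Span coverage by H2A.Z WT was 5.38% at 1e-12 and 6.91% after joining regions no more than 1 kb apart, by H2A.Z AP3 0.451% in the union, and by H3K27me3 5.87% at 1e-12 and 10.9% with joined regions. The share of H2A.Z WT regions that overlapped H2A.Z AP3 was 4.41% where at least 50% of the region had to be covered, and the share that overlapped H3K27me3 was 27.9% there and 82.4% where a region within 1 kb counted. These settings change the criterion itself. Leaving out a replicate was not possible with 1 library a group. No paired analysis was possible because each group has 1 library and no result comes from a test. Unknown depth limits every comparison between lists, and intervals of span coverage count bins of 25 bp as independent.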

Other observations

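In the alpha span, 1 H2A.Z WT region of 200 bp lay outside all frames (chr18:37337951-37338150), downstream of the last variable exon, and it held no recurring stretch.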
